A study of Homo sapiens with 6 samples.

Results

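RNA-seq was performed on SU-CCS-1 cells treated with a negative control siRNA (siNeg1, 2 libraries) or with the second of a pair of siRNAs directed at the EWSR1::ATF1 fusion (siEA1-2, 2 libraries). These 4 libraries were chosen by their sample labels out of 6, and the other 2 carried a first siRNA, siEA1-1. SU-CCS-1 is an established human cell line of clear cell sarcoma, a soft tissue tumor, and here it stands for that tumor as a single line. Both groups carry the fusion gene. The control is labelled as a scramble knockdown control. The methods of the study give an siRNA amount of 5 pmol per well and a time of 48 h, after which polyadenylated RNA was sequenced. Those methods describe 1 siRNA against the fusion, and neither its identity with siEA1-2 nor the sequence of siEA1-2 is given in the sources used here. The labels do not say whether the replicates came from separate cultures, so p-values measure the spread between these libraries, which may be technical.

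EWSR1::ATF1 joins the activation domain of an RNA-binding protein of the FET family to the DNA-binding bZIP domain of ATF1. ATF1, CREB1 and CREM form the cAMP response element binding family, which occupies the cAMP response element (CRE) in promoters and is normally switched on by protein kinase A when cAMP rises. In the fusion the regulated part of ATF1 is replaced, so the protein can activate without that signal. Clear cell sarcoma cells express genes of the melanocyte lineage, among them MITF, the master regulator of pigment cells, which itself has a CRE in its promoter.

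The letters of that element are shown in 30-base windows of 3 genes below, because they carry the textbook form of the fusion's binding site and all 3 genes fell with siEA1-2. Of 34 tested genes on a list of cAMP response genes, 26 had a promoter in the RefSeq table used (GRCh38.p14, 250 bases before to 50 after the gene start). The full element was found in 3 of them, and in 338 of all 9810 tested protein-coding genes with a promoter (3.45%). A single promoter of each gene was searched, so other starts of a gene were not covered. Each window is printed 5′ to 3′ on the strand of its gene, with the CRE in capitals.
AREG: cggccgggcctTGACGTCAtgggctgcggc
DUSP1: ggcagggcgggTGACGTCAccgccccgtca
CCNA2: gtcgccttgaaTGACGTCAaggccgcgagc
The AREG window lies at chr4:74445060-74445089 on the plus strand, and its CRE begins 65 bases before the gene start. For DUSP1 the window is chr5:172771302-172771331 on the minus strand, with the CRE beginning 125 bases before the start. For CCNA2 it is chr4:121823946-121823975 on the minus strand, with the CRE beginning 81 bases before the start.

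The deposited counts summed to 6666976 and 7599305 in the siNeg1 libraries and to 5942808 and 7115758 in the siEA1-2 libraries, where 3 counts, taken as the smallest level told from 0, correspond to 0.395 to 0.505 CPM, the counts scaled to a common library size. This floor covers counting error only. Replicates correlated across genes at 0.982 for siNeg1 and 0.977 for siEA1-2 on the log2 scale. Of 10 listed melanocytic and neural crest markers, 9 were in the counts, and their summed level was 3460 and 3280 CPM with siNeg1 and at least 8270 CPM in both siEA1-2 libraries. Fibroblast markers (2 of 10 in the counts) summed to 2.76 to 3.45 CPM with siNeg1 and to 12.9 to 21.7 CPM with siEA1-2, and leukocyte markers (2 of 10) to at most 6.84 CPM in any of the 4 libraries. Epithelial markers (2 of 10) and endothelial markers (2 of 8) stayed at or under 3.42 CPM, and none of 8 skeletal muscle markers was in the counts. The part of other cell types in the results was not tested.

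ATF1 (ENSG00000123268, chr12:50763710-50821162 of hg38), the DNA-binding partner of the fusion, was at 82.2 and 87.4 CPM in the siNeg1 libraries and at 21.7 and 22.3 CPM in the siEA1-2 libraries. Its log2 fold change (log2FC, siEA1-2 minus siNeg1) was -1.94 (SE 0.13, adjusted p = 1.04e-06). EWSR1 (ENSG00000182944, chr22:29268009-29300525), the other partner, was at 198 and 233 CPM with siNeg1 and at 221 and 198 CPM with siEA1-2, and the groups overlapped (log2FC -0.04, SE 0.11, adjusted p = 0.789). Reads on either gene include the fusion and the unrearranged copy. In bulk RNA, fewer cells of one kind and less RNA per cell cannot be told apart.

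Among 14571 tested genes, 2650 (18.2%) fell and 2702 (18.5%) rose with siEA1-2 at an adjusted p under 0.05, so that 36.7% were called in either direction. By edgeR on the 4 compared libraries alone, 2438 fell and 2431 rose. DESeq2 on the same 4 libraries called 1817 lower and 1776 higher genes. Libraries of the groups did not overlap for 9918 tested genes (68.1%). Among called genes this held for 2649 of the 2650 that fell and for all 2702 that rose. The fallen genes took 28.0% and 28.3% of all counts in the siNeg1 libraries and 15% and 16.5% in the siEA1-2 libraries. The risen genes took 21.8% and 21.5% with siNeg1 and 40.8% and 35.8% with siEA1-2. A change of over 2-fold (log2FC beyond 1 in size) was fitted for 1099 fallen and 1103 risen genes, and of over 4-fold for 379 and 362. Protein-coding genes made up 2442 of the fallen and 2415 of the risen genes, and long noncoding RNAs 149 and 223.

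The siEA1-2 replicates were not equally far from the controls. Replicate 1 was lower than replicate 2 for 1902 of the 2650 fallen genes (71.8%) and higher for 1924 of the 2702 risen genes (71.2%), although ATF1 stood at the same level in both. The tilt was 96.9% among risen oxidative phosphorylation genes, 93.0% among fallen DNA replication genes and 92.9% among risen pigment genes, and 40.9% among risen cadherins. It compares the siEA1-2 libraries only. In siNeg1 replicates 1 and 2, summed CPM of all tested members was 7370 and 6510 for oxidative phosphorylation and 3580 and 3870 for DNA replication. The sums were 6780 and 6400 for pigment genes and 4910 and 4750 for cadherins. The part of a replicate difference shared with the controls was not tested. Without siEA1-2 replicate 1, 2258 genes fell and 2068 rose, and without replicate 2, 2786 and 2543.

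**Figure D1:**
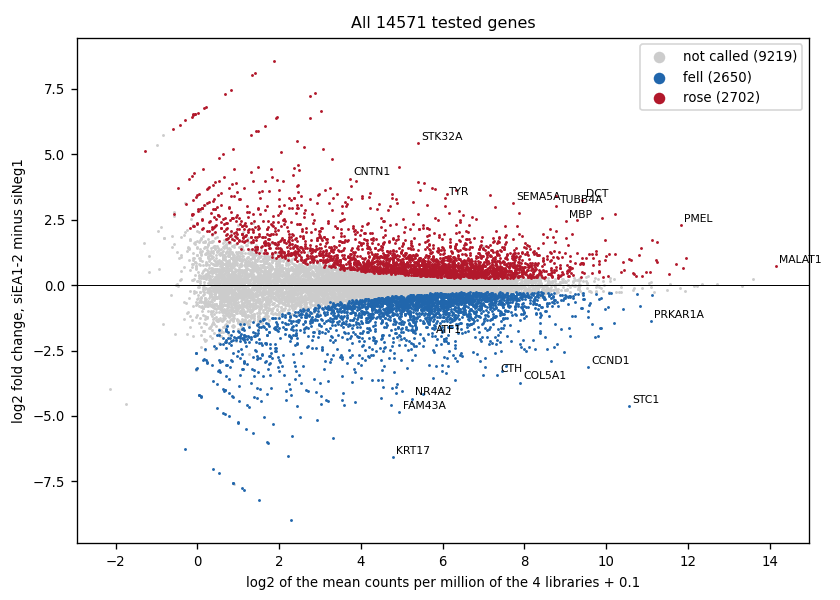
Log2 fold change (siEA1-2 minus siNeg1) of each of the 14571 tested genes against the log2 of its mean CPM over the 4 libraries plus 0.1. Blue points are the 2650 genes that fell, red points the 2702 that rose and grey points those not called, with STC1 and CCND1 low and PMEL and TUBB4A high among abundant genes. Points toward the left at either end of the fold scale have few counts in 1 group, and their fitted values depend on the prior count.

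Among the genes with the largest fitted changes and no overlap, KRT17, a keratin of epithelial stress, had 227 and 579 counts with siNeg1 and 5 and 2 with siEA1-2. FAM43A, a gene of unknown function, went from 59.6 and 59.1 CPM to 1.25 and 2.67 CPM (log2FC -4.86, SE 0.28). SLITRK3, a synaptic adhesion protein, went from 27.7 and 27.8 CPM to 1.07 and 1.40 CPM, and FOXA1, a pioneer factor, from 23.5 and 22.1 CPM to 0.534 and 1.26 CPM. C13orf46 had 167 and 106 counts with siNeg1 and 1 and 3 with siEA1-2, TMEM154 had 69 and 146 against 3 and 2, and IL18R1, an interleukin receptor chain, had 80 and 65 against 3 and 2. The noncoding LINC01471 fell from 43.9 and 57.6 CPM to 2.14 and 2.11 CPM. That both siNeg1 libraries stood above both siEA1-2 libraries was a condition for choosing these genes.

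In the opposite direction, several genes were close to absent in the controls. FRG2DP, a pseudogene of the FRG2 family whose reads may be shared with its copies, had 0 and 1 counts with siNeg1 and 110 and 67 with siEA1-2. TRPM1, a channel of melanocytes and retina, had 1 and 0 against 99 and 62, KCNJ13, a potassium channel, had 0 and 2 against 125 and 68, and NAV3, a neuron navigator, had 1 and 1 against 102 and 59. STK32A, a protein kinase, went from 2.25 and 1.54 CPM to 110 and 54.0 CPM (log2FC 5.43, SE 0.38). CNTN1, a neural adhesion protein, went from 1.80 and 1.16 CPM to 29.7 and 19.8 CPM (log2FC 4.06, SE 0.32). Replicate 1 was the higher siEA1-2 library for each of these 6 genes.

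By difference in CPM, the largest losses were in STC1, a secreted glycoprotein hormone, PRKAR1A, the regulatory subunit that holds protein kinase A inactive, and the cell cycle gene CCND1. PRKAR1A went from 3091 and 3253 CPM to 1163 and 1263 CPM (log2FC -1.39, SE 0.11), and ACSL1, which activates fatty acids, from 1647 and 1749 CPM to 553 and 699 CPM (log2FC -1.44, SE 0.14). AKAP12, a scaffold for protein kinase A, went from 1445 and 1410 CPM to 395 and 514 CPM (log2FC -1.65, SE 0.15). The largest gains were in MALAT1, a nuclear noncoding RNA, which went from 14050 and 13496 CPM to 24930 and 20287 CPM (log2FC 0.71, SE 0.15), and in the pigment gene PMEL. WARS1, the tryptophan tRNA synthetase, went from 2314 and 2928 CPM to 4709 and 5932 CPM (log2FC 1.02, SE 0.16). PRUNE2 went from 1221 and 1118 CPM to 3848 and 3552 CPM, and SCD, which makes monounsaturated fatty acids, from 996 and 1066 CPM to 3918 and 2958 CPM. In each of these genes, as in nearly all called genes, the siNeg1 and siEA1-2 libraries did not overlap.

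To describe functions, 87 gene lists were counted, and 59 of them had at least 8 tested members with a share of fallen or risen genes at least 1.5 times that of all genes. Of these, 34 passed on the fallen side, 28 on the risen side and 3 on both. The lists were chosen with earlier results of these data known, and their counts are descriptions beside the background of 18.2% and 18.5%.

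**Figure D2:**
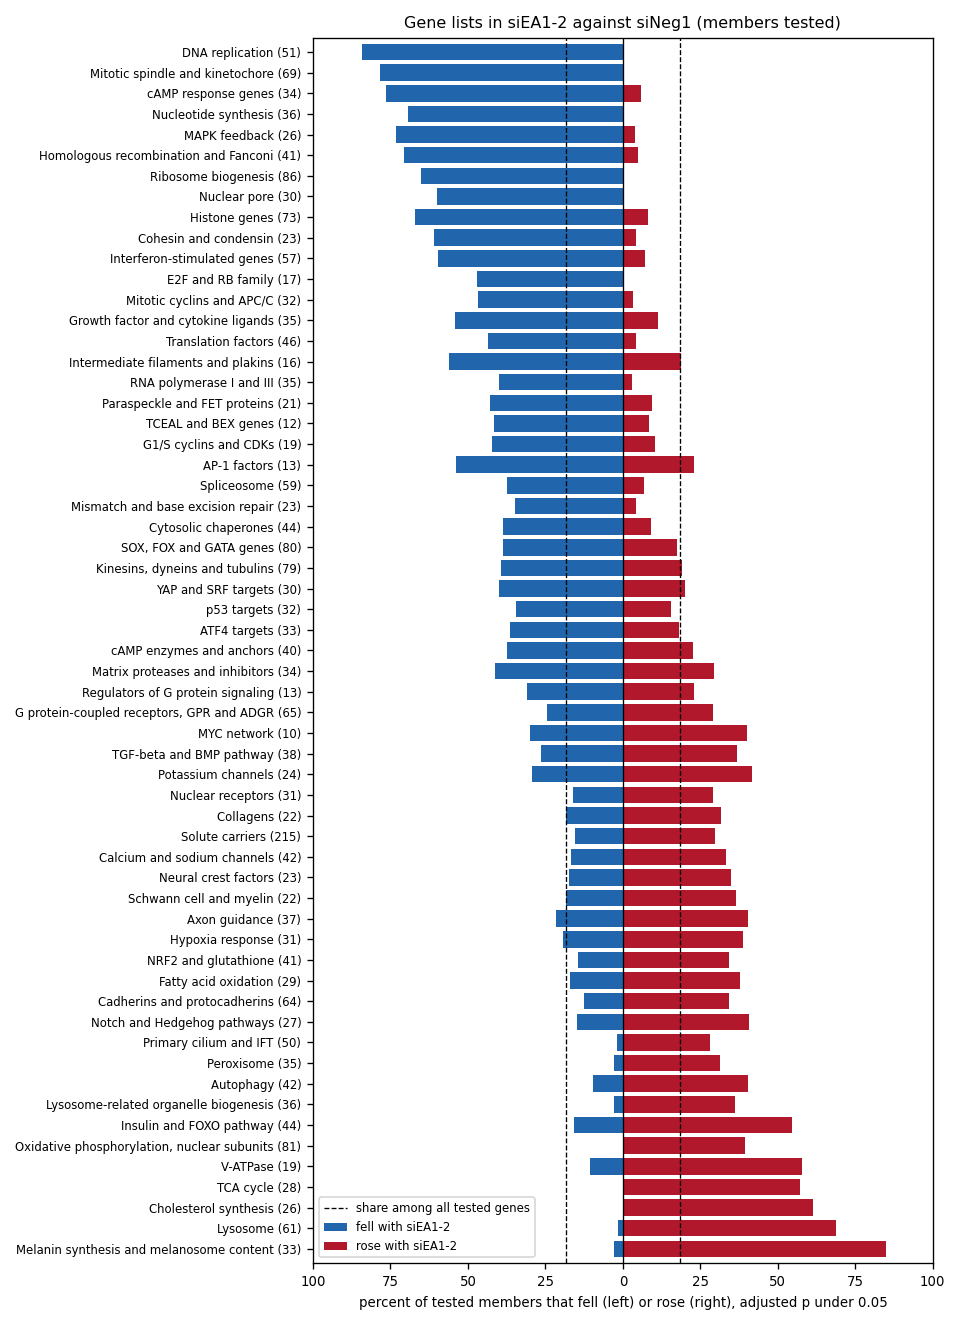
Percent of the tested members of 59 gene lists that fell (blue, left) or rose (red, right) with siEA1-2, with the number of tested members in brackets and the shares among all tested genes (18.2% and 18.5%) as dashed lines. DNA replication, mitotic and cAMP response genes are at the fallen end, and melanin, lysosome and cholesterol genes at the risen end.

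Genes of the cAMP response fell together. Of 34 tested members 26 fell, 76.5% against the background of 18.2%, 2 rose, and the median log2FC was -1.51 where that of all genes was 0.0. With siEA1-1, which was compared with the same control libraries, 23 fell and 4 rose (median -1.02). Over all genes 20.3% fell and 19.9% rose with siEA1-1, the background for its counts here and in the lists that follow. STC1 was at 2757 and 3060 CPM with siNeg1 and at 71.0 and 165 CPM with siEA1-2 (log2FC -4.62, SE 0.41, adjusted p = 8.44e-06). NR4A2, an orphan nuclear receptor induced early by cAMP, went from 79.8 and 65.2 CPM to 1.78 and 5.05 CPM (log2FC -4.34, SE 0.29, adjusted p = 1.11e-06). NFIL3, a repressor of the bZIP class, went from 120 and 105 CPM to 12.3 and 14.7 CPM (log2FC -3.05, SE 0.15, adjusted p = 1.91e-07). In all 3, as in nearly all fallen genes, both siEA1-2 libraries lay below either control, with replicate 1 the lower.

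PCK1, the gluconeogenic enzyme that is a classical CREB target, went from 24.2 and 19.7 CPM to 1.07 and 0.983 CPM, and GEM, a small GTPase, from 35.9 and 48.6 CPM to 3.03 and 3.79 CPM. RGS2, which shortens G protein signals, went from 271 and 241 CPM to 57.9 and 79.0 CPM (log2FC -1.90, SE 0.14). The 3 genes whose promoters are shown above fell by unequal amounts. AREG, an EGF receptor ligand, had 21 and 17 counts with siNeg1 and 0 in both siEA1-2 libraries, where each library could have held up to 3. DUSP1, a MAP kinase phosphatase, went from 31.0 and 45.4 CPM to 8.72 and 8.42 CPM (log2FC -2.16, SE 0.25). CCNA2, the S-phase cyclin, went from 106 and 113 CPM to 67.6 and 89.8 CPM (log2FC -0.47, SE 0.13, adjusted p = 0.0153). Its call was lost without siEA1-2 replicate 1 (log2FC -0.31, adjusted p = 0.0753) and without siNeg1 replicate 2 (log2FC -0.46, adjusted p = 0.0764).

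The members of the list that rose were PPARGC1A, a coactivator of mitochondrial genes, and PDE4B, a cAMP phosphodiesterase. PPARGC1A was at 307 and 388 CPM with siNeg1 and at 829 and 677 CPM with siEA1-2 (log2FC 1.11, SE 0.14). PDE4B was at 94.9 and 86.5 CPM against 125 and 108 CPM (log2FC 0.36, SE 0.13, adjusted p = 0.0446). It was not called with RLE scaling (adjusted p = 0.0523) or by DESeq2 (adjusted p = 0.106 over 6 libraries and 0.119 on 4). Its call was lost when either siNeg1 library, siEA1-2 replicate 1 or siEA1-1 replicate 2 was left out (adjusted p 0.0581 to 0.288).

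Members of the CREB family itself moved apart. CREM went from 126 and 139 CPM to 21.0 and 20.9 CPM (log2FC -2.66, SE 0.12), whereas CREB1 went from 40.9 and 46 CPM to 104 and 107 CPM (log2FC 1.28, SE 0.11, adjusted p = 5.75e-06). Replicates of these genes were close to each other in both groups. Reads that these paralogs of ATF1 share may have been divided among them, since their counting is not described. Around the cAMP pathway, 15 of 40 tested enzymes and anchors fell (37.5%) and 9 rose (22.5%, near the 18.5% of all genes). PDE1C and PDE8B, which degrade cyclic nucleotides, went from 44.3 and 56.7 CPM to 2.85 and 3.65 CPM and from 40.0 and 41.9 CPM to 5.34 and 3.37 CPM (log2FC -3.94, SE 0.33 and -3.25, SE 0.23).

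**Figure D3:**
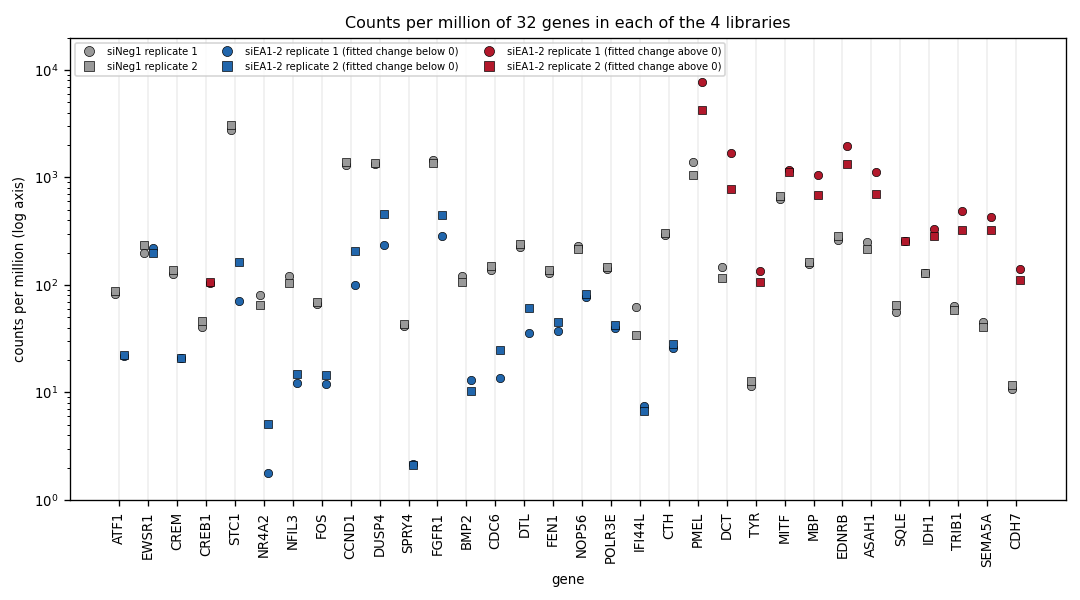
CPM on a log axis of 32 genes in each of the 4 libraries, with grey symbols for siNeg1, coloured symbols for siEA1-2, circles for replicate 1 and squares for replicate 2. ATF1, CREM and SPRY4 are equally low in both siEA1-2 replicates, whereas STC1, CCND1, PMEL and DCT lie farther from the controls in replicate 1, and EWSR1 overlaps.

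The wider promoter comparison gave small differences in the share with the element. The palindrome TGACGTCA was searched on both strands in 300-base RefSeq promoters, a single one per gene, of 9810 of the 11982 tested protein-coding genes. It was present in 83 of 1982 fallen genes (4.19%), 51 of 1944 risen genes (2.62%) and 204 of 5884 genes not called (3.47%), against 540 of 27305 promoters in the table (1.98%). Among genes that fell by over 4-fold it was present in 10 of 206 (4.85%), and among those that rose by over 4-fold in 4 of 190 (2.11%). The shorter element TGACG, which every full element also holds, was in 35.4% of fallen, 33.8% of risen and 35.4% of other promoters, and in 25.7% and 22.6% of those that fell or rose by over 4-fold. The related AP-1 element TGAGTCA was in 2.37%, 2.88% and 2.52%, and in 4.37% and 5.26% of those that fell or rose by over 4-fold. The median log2FC of the 338 genes with the full element was -0.06. These shares are descriptions and do not mark bound sites.

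AP-1, the FOS and JUN dimer, is made of early response proteins of the same bZIP class. Of 13 tested AP-1 and MAF factors 7 fell and 3 rose. FOS went from 66.5 and 68.7 CPM to 12.1 and 14.6 CPM (log2FC -2.33, SE 0.16, adjusted p = 1.12e-06), and JUNB from 44.6 and 44 CPM to 16.2 and 16.4 CPM (log2FC -1.44, SE 0.16). MAFK, a small MAF protein, went from 118 and 111 CPM to 17.8 and 16.4 CPM (log2FC -2.74, SE 0.13). MAF, a large MAF protein, went the other way, from 15.4 and 16.3 CPM to 85.6 and 54.6 CPM (log2FC 2.13, SE 0.20). MAFF also rose.

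Growth factor genes and the negative regulators that the ERK pathway induces on itself fell. Of 35 tested ligands 19 fell (54.3%) and 4 rose (median log2FC -1.08). Of 26 tested MAPK feedback genes 19 fell (73.1%) and 1 rose (median -1.46). With siEA1-1 the same counts were 19 and 4 for the ligands and 18 and 1 for the feedback genes, on the same control libraries. BMP2, a bone morphogenetic protein, went from 121 and 106 CPM to 13.2 and 10.4 CPM (log2FC -3.28, SE 0.16), and HBEGF, an EGF receptor ligand, from 71.7 and 66.0 CPM to 12.6 and 9.27 CPM (log2FC -2.66, SE 0.18). LIF, a cytokine of the interleukin 6 class, had 104 and 95 counts against 6 and 4, and NRG1, the ligand of ERBB3, had 86 and 89 against 5 and 4. The ligands that rose were IL16, IGF1, FGF14 and VEGFB, of which IL16 had 0 and 6 counts with siNeg1 and 114 and 86 with siEA1-2.

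Among the feedback genes, SPRY4, a Sprouty inhibitor of receptor signals, went from 41.2 and 43.6 CPM to 2.14 and 2.11 CPM (log2FC -4.31, SE 0.23, adjusted p = 2.96e-07). DUSP4, a nuclear ERK phosphatase, was at 1344 and 1360 CPM against 237 and 452 CPM (log2FC -1.97, SE 0.24), and ETV5, an ETS factor, at 121 and 115 CPM against 34.9 and 48.3 CPM (log2FC -1.50, SE 0.19). EPHA2, an ephrin receptor, went from 45.7 and 33.0 CPM to 5.34 and 1.40 CPM, and the receptor FGFR1 from 1453 and 1369 CPM to 283 and 450 CPM (log2FC -1.94, SE 0.18). Every one of these genes was lower in both siEA1-2 libraries than in either control, as were 2649 of the 2650 fallen genes. DUSP10, a phosphatase of p38 and JNK, was the member that rose, from 370 and 349 CPM to 660 and 479 CPM (log2FC 0.66, SE 0.15, adjusted p = 0.00502), and its adjusted p was 0.0519 without siNeg1 replicate 2.

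Genes of the cell cycle fell on the lists for replication, repair and mitosis. Cyclins and their kinases drive the passage from G1 into S phase, E2F factors switch on the replication genes, and origins are licensed by ORC, CDC6 and the MCM helicase. CCND1, cyclin D1, went from 1305 and 1379 CPM to 99.5 and 206 CPM (log2FC -3.13, SE 0.25, adjusted p = 3.97e-06). Of 19 tested G1/S genes 8 fell and 2 rose. The risen ones were CDK2, the partner kinase of cyclins E and A, at 514 and 480 CPM against 1373 and 1095 CPM (log2FC 1.31, SE 0.13), and CDKN1B, the inhibitor p27, at 33.4 and 30.2 CPM against 60.9 and 55.9 CPM (log2FC 0.88, SE 0.12). CDK2 lies wholly within the span of PMEL on the opposite strand, and since the strand setting of the counting is not given, the reads of PMEL, which rose, cannot be separated from its own. MAFF, MLANA, TSPAN10 and HADHB, all described as risen, likewise overlap a more abundant gene on the opposite strand that also rose. CDKN1A, the inhibitor p21, fell from 223 and 148 CPM to 102 and 103 CPM (log2FC -0.85, SE 0.18). E2F7, an atypical E2F, went from 115 and 117 CPM to 18.7 and 30.3 CPM (log2FC -2.22, SE 0.18), and of 17 tested E2F and RB genes 8 fell and none rose, or 5 without siNeg1 replicate 2.

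Of 51 tested DNA replication genes 43 fell (84.3%) and none rose (median log2FC -1.05). CDC6 went from 138 and 150 CPM to 13.7 and 24.6 CPM (log2FC -2.88, SE 0.20, adjusted p = 1.53e-06), DTL, which degrades licensing factors, from 224 and 239 CPM to 36.0 and 61.1 CPM (log2FC -2.24, SE 0.20), and FEN1, the flap nuclease, from 128 and 138 CPM to 37.0 and 44.9 CPM (log2FC -1.69, SE 0.12). MCM2 of the helicase went from 87.9 and 104 CPM to 37.0 and 44.1 CPM and the sliding clamp PCNA from 120 and 116 CPM to 51.3 and 63.5 CPM. Replicate 1 was lower than replicate 2 in 40 of the 43 fallen genes.

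Nucleotide synthesis had 25 of 36 tested members down and none up, with RRM2, the small subunit of ribonucleotide reductase, at 172 and 201 CPM against 54.1 and 88.0 CPM (log2FC -1.39, SE 0.18), and CTPS1, which makes CTP, at 136 and 152 CPM against 45.9 and 68.1 CPM. Homologous recombination and Fanconi genes had 29 of 41 down (median -0.93), and the 2 that rose were FANCF and RAD51B. Neither was called by DESeq2 on the 4 libraries (adjusted p = 0.0916 and 0.197). FANCF was not called without siNeg1 replicate 2 (adjusted p = 0.0901), nor RAD51B without either siEA1-1 library, siEA1-2 replicate 2 or siNeg1 replicate 1 (adjusted p 0.0708 to 0.288). Replication-dependent histones are made in S phase, but the histone list was taken by gene name and was not limited to them. Of its 73 tested genes 49 fell (median -0.89) and 6 rose. The risen genes were H3P6, H2AJ, H3-3A, H2BC19P, MACROH2A2 and H1-10. H3C7 went from 59.4 and 60.6 CPM to 13.7 and 21.5 CPM (log2FC -1.75, SE 0.19). Histone genes are near-identical copies whose transcripts mostly lack poly(A) tails, and how reads were divided among them is not stated.

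Mitotic genes fell in number but by less. Of 69 tested spindle and kinetochore genes 54 fell (78.3%) and none rose, with a median log2FC of -0.63, and with siEA1-1, on the same controls, 63 fell with a median of -1.20 (background 20.3%). In the direct test of siEA1-2 against siEA1-1, 20 of the 69 differed, against 326 of 14571 genes (2.24%). CENPK, a kinetochore protein, went from 56.6 and 76.4 CPM to 20.5 and 30.5 CPM (log2FC -1.37, SE 0.20), CDK1, the mitotic kinase, from 117 and 114 CPM to 44.3 and 53.8 CPM (log2FC -1.23, SE 0.12), and FOXM1, a factor for mitotic genes, from 248 and 247 CPM to 111 and 135 CPM (log2FC -1.01, SE 0.11). The proliferation marker MKI67 changed less, from 583 and 593 CPM to 367 and 469 CPM (log2FC -0.49, SE 0.12, adjusted p = 0.00934). TOP2A, the topoisomerase of dividing cells, went from 357 and 339 CPM to 198 and 240 CPM (log2FC -0.67, SE 0.12). Of 23 cohesin and condensin genes 14 fell and STAG2 rose.

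Genes for the making of ribosomes fell, while few ribosomal protein genes were called. Of 86 tested ribosome biogenesis factors 56 fell (65.1%) and none rose (median log2FC -0.61). Of 79 cytosolic ribosomal protein genes 8 fell (10.1%) and 1 rose (1.27%, median -0.15), both shares below those of all genes. NOP56 and NOP58, core proteins of the particles that methylate ribosomal RNA, went from 228 and 214 CPM to 77.1 and 81.8 CPM (log2FC -1.47, SE 0.11) and from 95 and 85.5 CPM to 34.7 and 41.7 CPM (log2FC -1.23, SE 0.14). RRP1B was at 78.3 and 89.2 CPM against 22.1 and 30.0 CPM. The abundant nucleolar proteins NCL and NPM1 fell less, with log2FC of -0.65 (SE 0.11) and -0.55 (SE 0.11).

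RNA polymerase I and III transcribe the ribosomal and transfer RNA genes, and 14 of 35 tested subunits and factors fell, while GTF3C1 rose, a call lost without siEA1-1 replicate 2, siEA1-2 replicate 1 or either siNeg1 library (adjusted p 0.0646 to 0.187). POLR3E went from 141 and 147 CPM to 39.9 and 42.7 CPM (log2FC -1.80, SE 0.11, adjusted p = 6.25e-07), and POLR1B from 91.0 and 104 CPM to 41.1 and 46.9 CPM (log2FC -1.14, SE 0.12). Of 30 nuclear pore genes 18 fell and none rose, with RANBP2 at 780 and 818 CPM against 336 and 372 CPM (log2FC -1.17, SE 0.11). Translation factors had 20 of 46 down and 2 up. Spliceosome genes had 22 of 59 down and 4 up, but 9 down without siNeg1 replicate 1. PRPF19 of the spliceosome went from 151 and 149 CPM to 68.5 and 73.7 CPM (log2FC -1.07, SE 0.10).

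The MYC network, which controls many of these genes, moved in both directions. MYC itself went from 192 and 212 CPM to 114 and 149 CPM (log2FC -0.62, SE 0.15, adjusted p = 0.00693). Of 10 tested members 3 fell (30.0%) and 4 rose (40.0%). Among the antagonists of MYC, MXD4 rose from 28.6 and 22.2 CPM to 99.3 and 90.8 CPM (log2FC 1.91, SE 0.13). MXI1 rose from 43.1 and 47.7 CPM to 116 and 117 CPM (log2FC 1.36, SE 0.11). MXD3, of the same family as MXD4, fell (log2FC -0.795, SE 0.27, adjusted p = 0.0382). MXI1 and MXD4 compete with MYC for its partner MAX.

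Interferon-stimulated genes, which cells use against viruses, fell. Of 57 tested 34 fell (59.6%) and 4 rose (median log2FC -0.67), and with siEA1-1, on the same controls, 26 fell and 5 rose (median -0.47, background 20.3% and 19.9%). IFI44L was at 62.4 and 34.6 CPM with siNeg1 and at 7.48 and 6.74 CPM with siEA1-2 (log2FC -2.77, SE 0.34, adjusted p = 8.57e-05). OAS2, which makes the activator of RNase L, was at 68.9 and 56.6 CPM against 8.90 and 13.8 CPM (log2FC -2.45, SE 0.31), and MX2, a dynamin-like GTPase, at 16.6 and 17 CPM against 1.78 and 2.81 CPM. STAT2, which carries the interferon signal to the nucleus, went from 165 and 148 CPM to 271 and 279 CPM (log2FC 0.81, SE 0.10). PML, GBP1 and GBP2 also rose, but none was called by DESeq2 on the 4 libraries (adjusted p = 0.0969, 0.0581 and 0.0667). The guanylate-binding proteins GBP1 and GBP2 had adjusted p of 0.0142 and 0.029, which became 0.107 and 0.17 without siEA1-2 replicate 1 and 0.0805 and 0.202 without siNeg1 replicate 2. The call of PML was lost without the same libraries (adjusted p = 0.0956 and 0.127).

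Intermediate filament genes and YAP and SRF targets had a fallen share above the background and a risen share near it. Of 16 intermediate filament and plakin genes 9 fell (56.2%) and 3 rose (18.8%). KRT80, a keratin, went from 8.23 and 6.56 CPM to 0.712 and 0.983 CPM and the nuclear lamin LMNB1 from 142 and 142 CPM to 54.3 and 70.8 CPM (log2FC -1.18, SE 0.13). VIM, the filament of mesenchymal cells, went from 558 and 508 CPM to 1197 and 1015 CPM (log2FC 1.05, SE 0.12), LMNA, the other lamin, from 514 and 487 CPM to 953 and 805 CPM, and MACF1 also rose, except without siNeg1 replicate 2 (adjusted p = 0.063). Targets of YAP and SRF, which read cell tension, had 12 of 30 down and 6 up. TPM4, a tropomyosin of actin filaments, went from 672 and 786 CPM to 194 and 263 CPM (log2FC -1.67, SE 0.15), and F3, tissue factor, from 17.1 and 16.5 CPM to 1.25 and 2.95 CPM. CCN2, a common YAP reporter gene, was at 10.3 and 10.2 CPM against 15.8 and 17.3 CPM (adjusted p = 0.0298), and this call was lost without any 1 of siEA1-2 replicate 2, siNeg1 replicate 1 or siNeg1 replicate 2 (adjusted p 0.0924 to 0.127).

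Of 34 matrix proteases and inhibitors 14 fell (41.2%) and 10 rose (29.4%). PLAUR, the urokinase receptor, had 22 and 41 counts with siNeg1 and 0 and 1 with siEA1-2, and SERPINA1, the antitrypsin gene, had 0 in both siNeg1 libraries and 20 and 17 with siEA1-2. Of 22 tested collagens 4 fell (18.2%, the same as the share of all genes) and 7 rose (31.8%). The risen count was smaller with any single library left out. COL5A1, a fibrillar collagen, went from 400 and 489 CPM to 19.8 and 46 CPM (log2FC -3.73, SE 0.28). COL4A4, of basement membranes, went from 0.599 and 1.29 CPM to 8.37 and 12.4 CPM (log2FC 3.41, SE 0.41). COL4A5 also rose, whereas COL4A1, COL4A2 and COL18A1 were the other collagens that fell. TGFBI, an adhesion protein induced by TGF-beta, fell from 1281 and 1502 CPM to 386 and 513 CPM (log2FC -1.63, SE 0.19). Of the transcription factors of the SOX, FOX, GATA and related families, 31 of 80 fell (38.8%) and 14 rose (17.5%), the latter near the share of all genes. RUNX2, the bone regulator, went from 122 and 127 CPM to 15.3 and 13.9 CPM (log2FC -3.09, SE 0.13, adjusted p = 1.91e-07).

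**Figure D4:**
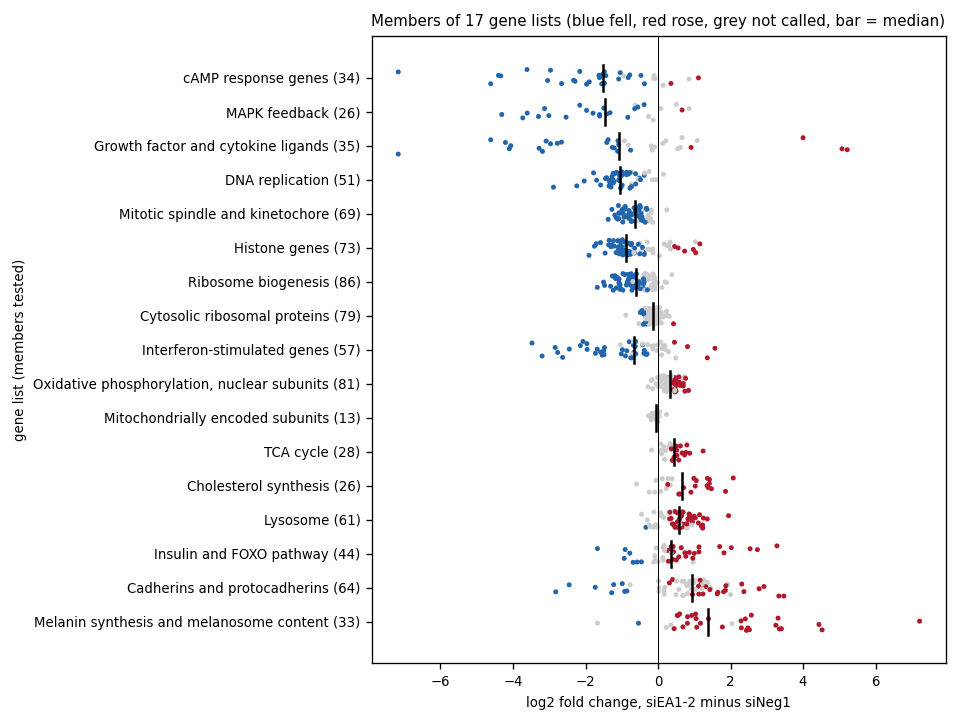
Log2 fold change (siEA1-2 minus siNeg1) of every tested member of 17 gene lists, with blue for members that fell, red for members that rose, grey for those not called and a black bar at the median. Medians run from -1.51 for cAMP response genes to 1.39 for melanin and melanosome genes, and cytosolic ribosomal protein and mitochondrially encoded genes lie close to 0. Members with a group at or near 0 counts, such as AREG and TRPM1, have fitted values that depend on the prior count.

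Pigment cell genes had the highest risen share of the 59 lists. Melanosomes are lysosome-related organelles in which tyrosinase and its relatives make melanin on fibrils of PMEL. Of 33 tested melanin and melanosome genes 28 rose (84.8% against a background of 18.5%) and 1 fell (median log2FC 1.39), and with siEA1-1, on the same controls, 25 rose and 2 fell (median 1.45). PMEL was at 1397 and 1043 CPM with siNeg1 and at 7768 and 4241 CPM with siEA1-2 (log2FC 2.30, SE 0.24, adjusted p = 2.77e-05). DCT, dopachrome tautomerase, went from 145 and 115 CPM to 1696 and 780 CPM (log2FC 3.25, SE 0.30), and TYR, tyrosinase, from 11.5 and 12.7 CPM to 136 and 106 CPM (log2FC 3.31, SE 0.15, adjusted p = 1.91e-07). The rise was larger in replicate 1 for all 3.

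TYRP1, the third enzyme of the family, went from 5.39 and 1.67 CPM to 23.0 and 14.7 CPM (log2FC 2.44, SE 0.41). TSPAN10 went from 2.39 and 2.57 CPM to 91.1 and 25.7 CPM, and ABCB5, a transporter of pigment cells, from 4.94 and 4.76 CPM to 59.3 and 39.9 CPM (log2FC 3.34, SE 0.29). SLC45A2, which sets melanosome pH, had 1 and 1 counts with siNeg1 and 20 and 23 with siEA1-2. MLANA, the melan-A antigen, had 4 and 0 against 24 and 15, and its call was lost without siEA1-2 replicate 1 (adjusted p = 0.0574) or siNeg1 replicate 2 (adjusted p = 0.0698). MLPH, a linker for melanosome transport, went from 36.2 and 31.4 CPM to 188 and 142 CPM (log2FC 2.29, SE 0.15).

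MITF went from 636 and 671 CPM to 1174 and 1118 CPM (log2FC 0.81, SE 0.10, adjusted p = 0.000113), whereas SOX10, which acts upstream of it, was at 786 and 868 CPM against 979 and 954 CPM (log2FC 0.23, SE 0.11, adjusted p = 0.125) and was not called. IRF4, a partner of MITF at the TYR gene, was the member that fell, from 866 and 769 CPM to 545 and 581 CPM (log2FC -0.54, SE 0.11). EDNRB, the endothelin receptor of melanoblasts, rose from 262 and 288 CPM to 1946 and 1324 CPM (log2FC 2.57, SE 0.17). Of 36 genes that build lysosome-related organelles 13 rose, or 7 without siEA1-2 replicate 1 or either siNeg1 library, and AP3M1 fell. RAB7A, a GTPase of late endosomes, went from 251 and 214 CPM to 618 and 505 CPM (log2FC 1.27, SE 0.13).

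Glial genes of the same neural crest origin rose in part. Of 22 tested Schwann cell and myelin genes 8 rose (36.4%) and 4 fell (18.2%, the same as the share of all genes). MBP, myelin basic protein, went from 156 and 162 CPM to 1052 and 686 CPM (log2FC 2.45, SE 0.18), and PMP22 from 78.7 and 79.3 CPM to 240 and 243 CPM (log2FC 1.61, SE 0.10). PMP2 had 0 and 1 counts against 36 and 21. The cadherins CDH19 and CDH2, with ITGB8 and POU3F2, were the members that fell, ITGB8 not by DESeq2 (adjusted p = 0.0602 over 6 libraries and 0.162 over 4) and POU3F2 not without siEA1-2 replicate 2 (adjusted p = 0.0518) or siNeg1 replicate 1 (adjusted p = 0.104). Of 23 neural crest factors 8 rose (34.8%) and 4 fell (17.4%, near the 18.2% of all genes). SNAI2 went from 31.7 and 27.6 CPM to 213 and 151 CPM (log2FC 2.62, SE 0.16), whereas its relative SNAI1 went from 25.3 and 27 CPM to 3.74 and 8.70 CPM (log2FC -2.03, SE 0.38). TFAP2A rose from 439 and 458 CPM to 971 and 869 CPM (log2FC 1.03, SE 0.11), and TFAP2C, of the same family, had 110 counts in each siNeg1 library and 6 and 4 with siEA1-2. ID4 and RXRG also fell.

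Lysosomal genes rose over a broad front by small amounts. Of 61 tested 42 rose (68.9%, or 26 without siNeg1 replicate 2) and 1 fell (median log2FC 0.59), and with siEA1-1, on the same controls, 42 rose and 3 fell (median 0.61). ASAH1, acid ceramidase, was at 253 and 218 CPM against 1120 and 694 CPM (log2FC 1.95, SE 0.19), GM2A at 138 and 102 CPM against 368 and 247 CPM (log2FC 1.36, SE 0.18), and the sialidase NEU1 at 36.4 and 33.7 CPM against 93.3 and 73.7 CPM (log2FC 1.25, SE 0.13). LAMP2, a membrane protein of the lysosome, fell from 2033 and 1816 CPM to 1545 and 1509 CPM (adjusted p = 0.0389), a call lost without siNeg1 replicate 1 (adjusted p = 0.254) or siEA1-1 replicate 1 (adjusted p = 0.0515).

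Of 19 V-ATPase genes, whose pump acidifies lysosomes and melanosomes, 11 rose and 2 fell, and 7 rose without siEA1-2 replicate 1 and 6 without siNeg1 replicate 2. ATP6V1B2 went from 99.4 and 86.4 CPM to 291 and 257 CPM (log2FC 1.56, SE 0.12), while ATP6V0B (log2FC -0.62, SE 0.11) and ATP6V0A2 fell. Autophagy genes had 17 of 42 up and 4 down, and 11 and 8 up without siNeg1 replicate 1 and 2 in turn. TFEB, the factor that drives lysosomal genes, went from 2.54 and 1.67 CPM to 7.83 and 6.60 CPM (log2FC 1.77, SE 0.38). GABARAP, an autophagosome protein, went from 15.1 and 18.5 CPM to 33.8 and 34.1 CPM (log2FC 1.01, SE 0.16). WDR45B, WIPI1, ATG101 and MAP1LC3B were the autophagy genes that fell, and MAP1LC3B was not called without siNeg1 replicate 1 (adjusted p = 0.0527).

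In sterol synthesis, the tricarboxylic acid cycle and respiration, the genes called were higher with siEA1-2. Of 26 tested cholesterol synthesis genes 16 rose and none fell (median log2FC 0.65), and with siEA1-1, on the same controls, 19 rose and none fell (median 0.81). SQLE, squalene epoxidase, went from 56.1 and 65.6 CPM to 255 and 258 CPM (log2FC 2.07, SE 0.16, adjusted p = 2.73e-06), and HMGCS1, near the start of the pathway, from 71.4 and 66.7 CPM to 175 and 193 CPM (log2FC 1.41, SE 0.15). SREBF2, the factor that drives these genes, rose from 138 and 146 CPM to 284 and 280 CPM (log2FC 0.99, SE 0.13). Unlike the pigment genes, SQLE and SREBF2 were level between the siEA1-2 replicates.

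Of 28 tricarboxylic acid cycle genes 16 rose and none fell (median 0.44), and 7, 8 and 9 rose without siEA1-2 replicate 1, siNeg1 replicate 1 and siNeg1 replicate 2 in turn. IDH1 went from 130 and 128 CPM to 329 and 283 CPM (log2FC 1.24, SE 0.11). Of 81 nuclear-encoded oxidative phosphorylation genes 32 rose (39.5%) and none fell (median 0.34), with 13 risen and 1 fallen with siEA1-1 on the same controls, where 19.9% of all genes rose. This count depended most on single libraries. It was 5 without siNeg1 replicate 2, 7 without siEA1-2 replicate 1, 16 and 19 without siEA1-1 replicate 2 and 1, and 51 without siEA1-2 replicate 2. NDUFAB1, of complex I, went from 83.1 and 75.1 CPM to 165 and 119 CPM (log2FC 0.84, SE 0.15). Of the 13 mitochondrially encoded genes none was called in either direction by edgeR (median -0.06).

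In fatty acid oxidation 11 of 29 tested genes rose and 5 fell, and 7 rose without siEA1-2 replicate 1 and 6 without siNeg1 replicate 2. The fallen share of 17.2% was near the 18.2% of all genes. CPT1A, which admits fatty acids to mitochondria, fell from 443 and 418 CPM to 55.7 and 99.7 CPM (log2FC -2.46, SE 0.20, adjusted p = 4.94e-06), and ACSL1, ECI1, ACAD9 and ACADVL fell with it, while HADHB of the later steps rose from 79.2 and 80.7 CPM to 177 and 129 CPM (log2FC 0.93, SE 0.14). Without siNeg1 replicate 1 the calls of ECI1, ACAD9 and ACADVL were lost (adjusted p = 0.147, 0.0561 and 0.0879), as were those of ECI1 without siEA1-2 replicate 2 (adjusted p = 0.121) and ACADVL without siNeg1 replicate 2 (adjusted p = 0.0682). Glutathione and NRF2 genes had 14 of 41 up and 6 down, or 7 up without siNeg1 replicate 2. GSTP1, a glutathione transferase, went from 566 and 431 CPM to 1338 and 914 CPM (log2FC 1.18, SE 0.18). GSTA4, a relative that handles lipid aldehydes, went from 14.1 and 13.1 CPM to 57.0 and 35.4 CPM (log2FC 1.75, SE 0.21).

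Genes of the insulin and FOXO pathway rose in 24 of 44 tested cases (54.5%, or 14 without siNeg1 replicate 2) and fell in 7. TRIB1, a pseudokinase, went from 63.2 and 58.6 CPM to 490 and 325 CPM (log2FC 2.74, SE 0.17, adjusted p = 7.81e-07). The FOXO targets CCNG2, a cyclin of quiescent cells, and SESN3, a sestrin, went from 9.28 and 9.64 CPM to 60.2 and 50.4 CPM (log2FC 2.54, SE 0.15) and from 38.5 and 28.8 CPM to 115 and 156 CPM (log2FC 2.02, SE 0.17). FOXO3 went from 65.7 and 64.8 CPM to 136 and 118 CPM (log2FC 0.96, SE 0.11). The fallen share of the list, 15.9%, was below the 18.2% of all genes. BCL6, another known FOXO target, fell from 61.1 and 62.0 CPM to 17.1 and 21.3 CPM (log2FC -1.67, SE 0.16), and so did TXNIP, from 122 and 120 CPM to 51.3 and 74.7 CPM (log2FC -0.93, SE 0.15).

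TGF-beta and BMP genes went both ways, 14 of 38 up (36.8%) and 10 down (26.3%). ID2, a target of BMP signals that blocks helix-loop-helix factors, rose from 67.1 and 61.8 CPM to 339 and 271 CPM (log2FC 2.24, SE 0.13), BAMBI, a decoy receptor, from 44.6 and 45.5 CPM to 175 and 133 CPM (log2FC 1.77, SE 0.14), and SMAD6, an inhibitory SMAD, from 16.5 and 19.9 CPM to 39.5 and 41.3 CPM (log2FC 1.15, SE 0.18). FST, which binds activin, fell from 45.8 and 40.8 CPM to 1.6 and 3.93 CPM (log2FC -3.90, SE 0.37). In the Notch and Hedgehog lists 11 of 27 rose (40.7%) and 4 fell (14.8%, below the 18.2% of all genes). PTCH1, the Hedgehog receptor and a target of its own pathway, fell from 138 and 126 CPM to 19.2 and 30.2 CPM (log2FC -2.40, SE 0.17), with GLI3, MAML3 and DLL1, and HES1, the Notch target, rose from 7.63 and 8.74 CPM to 22.3 and 15.4 CPM (log2FC 1.19, SE 0.23).

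Cell surface and guidance genes rose in the larger number. Of 64 tested cadherins and protocadherins 22 rose and 8 fell (median log2FC 0.94), with 13 risen without siEA1-2 replicate 2 or siNeg1 replicate 1 and 14 without siNeg1 replicate 2. The summed CPM of this list went down, from 4910 and 4750 with siNeg1 to 3930 and 3990 with siEA1-2. The median level of its members was only 4.26 CPM. The fallen share was 12.5%, below the 18.2% of all genes. Protocadherins of the gamma cluster share exons, so their counts are uncertain. CDH7 went from 10.8 and 11.8 CPM to 140 and 112 CPM (log2FC 3.47, SE 0.16, adjusted p = 1.91e-07), and FAT4 from 2.39 and 3.34 CPM to 38.1 and 21.1 CPM (log2FC 3.33, SE 0.34). JUP, plakoglobin of cell junctions, fell from 20.4 and 44.5 CPM to 5.52 and 6.32 CPM (log2FC -2.45, SE 0.36).

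Axon guidance genes had 15 of 37 up (40.5%) and 8 down (21.6%, near the 18.2% of all genes). The semaphorins SEMA5A and SEMA3C went from 45.7 and 40.9 CPM to 425 and 326 CPM (log2FC 3.12, SE 0.14) and from 8.68 and 4.63 CPM to 96.5 and 65.6 CPM (log2FC 3.62, SE 0.25). PLXNC1, a semaphorin receptor of melanocytes, went from 119 and 92.2 CPM to 408 and 361 CPM (log2FC 1.87, SE 0.13). EFNB2, an ephrin ligand, fell from 72.7 and 78.9 CPM to 14.1 and 15.9 CPM (log2FC -2.34, SE 0.15), and SLIT2, a repellent, from 26.8 and 23.4 CPM to 6.23 and 5.33 CPM (log2FC -2.12, SE 0.22).

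Among 215 solute carriers 64 rose (29.8%) and 33 fell (15.3%, below the 18.2% of all genes). SLC2A3, a high-affinity glucose transporter, fell from 244 and 226 CPM to 19.8 and 33.3 CPM (log2FC -3.13, SE 0.19), and SLC7A5, the large neutral amino acid transporter, rose from 1603 and 1655 CPM to 3285 and 3002 CPM (log2FC 0.95, SE 0.11). Of 24 potassium channel genes 10 rose (41.7%) and 7 fell (29.2%). KCND2 had 18 counts in each siNeg1 library and 0 and 1 with siEA1-2. ADORA2B, an adenosine receptor that raises cAMP, fell from 22.3 and 22.4 CPM to 1.25 and 1.26 CPM (log2FC -4.13, SE 0.30), and S1PR1, the sphingosine phosphate receptor, had 148 and 97 counts against 6 and 4. TUBB4A, a neural beta-tubulin, rose from 91.3 and 99.3 CPM to 939 and 610 CPM (log2FC 3.02, SE 0.20), and MAPT, the tau protein, from 4.64 and 3.99 CPM to 45.0 and 21.2 CPM (log2FC 2.93, SE 0.41).

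Among lists of stress genes, ATF4 targets, p53 targets and chaperones had a fallen share above the background and a risen share at or below it. Other stress lists did not share this pattern. Hypoxia response genes rose in 12 of 31 tested cases (38.7%) and fell in 6 (19.4%), and the glutathione and NRF2 genes given above leaned to the risen side. Of 33 targets of ATF4, which answers amino acid shortage, 12 fell (36.4%) and 6 rose (18.2%). CTH, which makes cysteine, had the lowest adjusted p of any gene, at 289 and 303 CPM against 26.0 and 28.5 CPM (log2FC -3.44, SE 0.12, adjusted p = 7.74e-08). TRIB3 fell from 17.8 and 16.2 CPM to 1.96 and 3.23 CPM (log2FC -2.68, SE 0.30), while PSAT1, of serine synthesis, rose from 34 and 31.4 CPM to 77.1 and 58.1 CPM (log2FC 1.04, SE 0.15). Of 32 p53 targets 11 fell, or 6 without siNeg1 replicate 1, and 5 rose (15.6%). BBC3, which promotes cell death, rose from 5.69 and 5.40 CPM to 30.1 and 23.2 CPM (log2FC 2.26, SE 0.20), and PLK3 fell from 23.2 and 25.2 CPM to 5.52 and 6.74 CPM (log2FC -1.97, SE 0.22). Of 44 chaperone genes 17 fell and 4 rose (9.09%), but 5 and 9 fell without siNeg1 replicate 1 and 2 in turn and 10 without siEA1-2 replicate 1.

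The remaining 28 lists had no share at or over 1.5 times the background among at least 8 tested members, and some lay well below the background. Their fallen shares ran from 0.0 to 27.3% and their risen shares from 0.0 to 27.6%. They include the mitochondrial ribosomal proteins (13 of 77 fell and 5 rose), the proteasome (10 of 46 fell, 2 rose), glycolysis (6 of 29 fell, 8 rose), the BAF chromatin complex (4 of 28 fell, 5 rose) and 472 ZNF zinc finger genes (41 or 8.69% fell, 51 or 10.8% rose).

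The direct test of siEA1-2 against siEA1-1 called 326 of 14571 genes (2.24%), and 25 of the 542 genes selected by the naming rule. That 25 moved with every library left out. It was 5 and 8 without siEA1-1 replicate 2 and 1, 11 and 13 without siNeg1 replicate 1 and 2, and 55 and 89 without siEA1-2 replicate 1 and 2. Some genes fell more with siEA1-2. EIF4H, a translation factor, had a log2FC of -1.26 (SE 0.11) with siEA1-2 and -0.21 with siEA1-1 (adjusted p of the difference = 0.0012), and WDR45B, of autophagy, had -1.48 and -0.32 (adjusted p = 0.00105). CDH2, N-cadherin, had -0.86 and 0.07 (adjusted p = 0.0182). FOS and KLF4 had log2FC of -2.33 against -1.13 (adjusted p = 0.00478) and of -2.29 against -1.11 (adjusted p = 0.0247). CREM, RRM2, CDC25A and LMNB1 fell less with siEA1-2. CDC25A, a phosphatase that starts S phase, had -1.47 against -2.56 (adjusted p = 0.0248). HSP90AA1, a chaperone, rose with siEA1-2 from 2494 and 2381 CPM to 4368 and 4081 CPM (log2FC 0.79, SE 0.12) and was not called with siEA1-1 (log2FC 0.19, adjusted p of the difference = 0.0269).

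**Figure D5:**
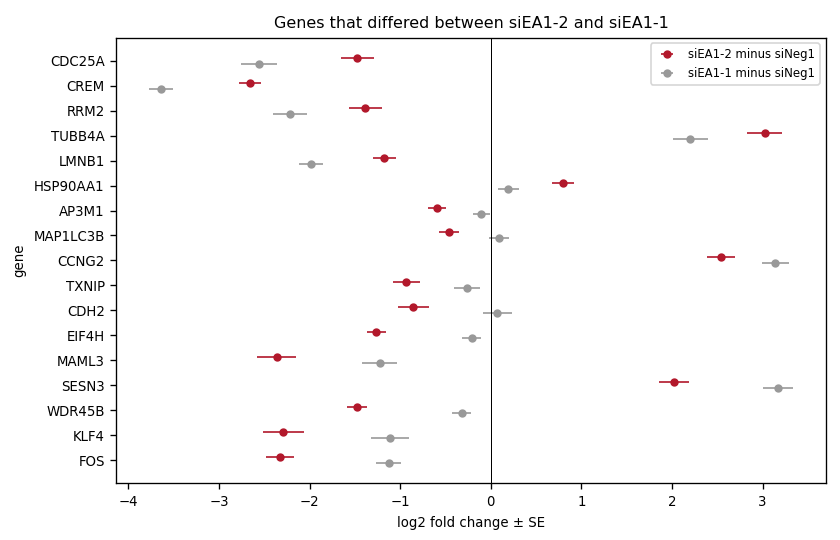
Log2 fold change with its standard error of 17 genes named in the text for which siEA1-2 and siEA1-1 differed, with siEA1-2 minus siNeg1 in red and siEA1-1 minus siNeg1 in grey. Both contrasts use the same siNeg1 libraries. EIF4H, WDR45B and CDH2 lie below 0 with siEA1-2 and nearer to 0 with siEA1-1, and CREM and CDC25A fell less with siEA1-2.

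The share of genes called varied with level and length. From the lowest to the highest quartile of mean CPM the fallen share went from 8.43% to 24.8% and the risen share from 11.3% to 28.2%. From the shortest to the longest quartile of longest transcripts the risen share went from 11.1% to 25.7% and the median log2FC from -0.07 to 0.06. Over quartiles of GC content medians ran from -0.05 to 0.02. By chromosome, the fallen share was highest on 13 (27.6% of 268 genes) and 21 (26.9% of 160), and on 19, with 948 tested genes, 12.8% fell and 11.6% rose. The part of transcript length in the list results was not tested.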

How the data were processed

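RNA-seq libraries of SU-CCS-1 cells were made with a stranded poly(A) kit. The deposited table holds raw counts per gene in 6 libraries, which the authors made by aligning reads to hg38 with BWA-MEM and counting with featureCounts 1.6.3 (version from the submitters' processing notes). The annotation and strand setting of the counting are not given in the sources used here, so overlapping and antisense genes cannot be separated. Of 18118 genes, 2589 had no symbol, and every per-sample column was used.

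Genes were kept by filterByExpr (minimum count 10, minimum total 15), leaving 14571, scaled by TMM and tested with edgeR 4.0.16 (R 4.3.3, limma 3.58.1) by quasi-likelihood over 3 groups of 2 libraries, with Benjamini-Hochberg adjustment over all genes and calls at 0.05. The study's methods name DESeq2, which was run as an alternative (version 1.42.0). All adjusted p in the text are edgeR's unless another tool is named. Replicates were compared on log2 CPM with a prior count of 2, and the common biological coefficient of variation was 0.109. Replicates differed beyond sampling noise (chi-square per gene 6.15 for siNeg1 and 8.89 for siEA1-2), so none was counted as a duplicate. With totals of 5942808 to 7599305 counts in the compared libraries, low genes are imprecise. The scripts were tested on simulated data.

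Named genes were ATF1 and EWSR1, the 12 largest fold changes in each direction without overlap and with a mean of at least 10 CPM in the higher group, the 8 largest CPM differences in each direction, and up to 6 called members per direction of each list described. A list was described with at least 8 tested members and a called share at least 1.5 times that of all genes. The members and lists were chosen with earlier results of these data known. The 19 text genes with values outside this rule, among them CREB1, CREM, MITF, SOX10, MKI67 and NCL, were chosen after their values were seen, as were the less common directions named in lists.

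Gene positions are from GENCODE release 44, and promoters from RefSeq (GRCh38.p14). Alternatives were RLE scaling, other count filters, DESeq2, fits on 4 libraries, a replicate block and leaving out each library. Some genes are not reported here.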

Additional observations from a re-analysis of the deposited data

Results flagged for a closer look

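For 17 genes in the text the effect of siEA1-2 differed from that of siEA1-1 in the direct edgeR test, with values as log2FC of siEA1-2 minus siEA1-1. Both siRNAs were compared with the same siNeg1 libraries.

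Levels were lower with siEA1-2 for FOS (-1.20, adjusted p = 0.00478), KLF4 (-1.18, adjusted p = 0.0247), WDR45B (-1.16, adjusted p = 0.00105), SESN3 (-1.15, adjusted p = 0.0044), MAML3 (-1.14, adjusted p = 0.0268) and EIF4H (-1.05, adjusted p = 0.0012). They were also lower for CDH2 (-0.93, adjusted p = 0.0182), TXNIP (-0.67, adjusted p = 0.0442), CCNG2 (-0.60, adjusted p = 0.0328), MAP1LC3B (-0.55, adjusted p = 0.0279) and AP3M1 (-0.49, adjusted p = 0.0294). CCNG2 and SESN3 rose with both siRNAs, and less with siEA1-2.

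Levels were higher with siEA1-2 for CDC25A (1.08, adjusted p = 0.0248), CREM (0.98, adjusted p = 0.00937), RRM2 (0.84, adjusted p = 0.0496), TUBB4A (0.82, adjusted p = 0.0408), LMNB1 (0.81, adjusted p = 0.0141) and HSP90AA1 (0.60, adjusted p = 0.0269). CREM, RRM2, CDC25A and LMNB1 fell with both siRNAs, and TUBB4A rose with both.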

How the results depend on the processing

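The 2650 lower and 2702 higher genes became 2719 and 2613 with RLE scaling, 2646 and 2706 without a filter, 2412 and 2454 with at least 10 counts in every library, 2066 and 2084 with DESeq2 over 6 libraries, and 1817 and 1776 with DESeq2 on 4. Leaving out 1 library gave 1955 to 2786 lower and 1767 to 2543 higher genes, the 1767 without siNeg1 replicate 2. Where that left 1 library in a group, it was assumed to vary like the others. The causes were not tested. Of the genes that siEA1-2 and siEA1-1 separated among those named, 25 became 5 to 89 with 1 library left out and 76 with the replicate block, and this test could not be made on 4 libraries. None of 204 genes in the text reversed under any alternative run, but 14 lost their call with DESeq2 on 4 libraries, 7 with DESeq2 over 6, 2 with RLE scaling, 2 with edgeR on 4, and 2 to 12 with 1 library left out. Only 171 of them had a value with at least 10 counts in every library. Calls lost in both DESeq2 runs were those of PDE4B, RAD51B, PML, CCN2, ITGB8, ECI1 and ACADVL. DESeq2 on 4 libraries also lost FANCF, GTF3C1, GBP1, GBP2, POU3F2, MAP1LC3B and ACAD9. RLE scaling lost PDE4B and RAD51B, and edgeR on 4 libraries lost RAD51B and LAMP2. Of the 59 lists, 52 to 59 stayed past 1.5 times the background, and list medians changed sign in 11 of 767 combinations of list and setting. Whether replicate numbers pair the libraries was not settled. Same-numbered deviations correlated at 0.199 over only 2 pairs. On the second axis of a principal component analysis of the 4 compared libraries, replicate 1 scored -19.536 with siNeg1 and -22.798 with siEA1-2. Replicate 2 scored 14.47 and 27.864 in the same order. A replicate difference in the same direction in both groups was thus visible on that axis, and the main test did not model it. Its cause was not tested. The replicate block gave 2946 lower and 2990 higher genes.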
